A study of Mus musculus with 8 samples.

Results

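The genes with late sustained decline are 95 mouse genes whose signal was lower at both 180 and 300 min of bicuculline than at 0 min, and close to the 0 min level at 30 min. RNA of cultured hippocampal neurons was hybridised to 8 arrays of the Affymetrix type Mouse Gene ST 1.0, 2 biological replicates at each of 0, 30, 180 and 300 min of 50 µM bicuculline. The neurons came from E17.5 embryos of ICR mice, an outbred strain, and all groups shared this strain, tissue and 10 days of culture. A signal is given on a log2 scale, 1 transcript cluster standing for a gene, and a change is the difference of the means of 2 times. A gene was a member when its mean over the 8 arrays was above 4.5, its changes at 180 and 300 min against 0 min were each at most −0.4, and its change at 30 min lay between −0.2 and 0.2. A fixed set of names was left out (some single genes, channel, cadherin, protocadherin and microRNA genes), which removed 8 of the 103 genes that met the numeric criteria. Members were 95 of 19938 genes with 1 symbol, or 0.709% of the 13407 genes above the signal floor.

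Because the values at all 4 times chose the members, their changes against 0 min are a description and carry no test. The labels named no culture kept without bicuculline to the later times, so time in culture and bicuculline cannot be told apart, and the values are of whole cultures, in which fewer cells of a type and less RNA per cell cannot be told apart. Bicuculline is an antagonist of GABA-A receptors, through which most fast inhibition runs, and it raises firing across the network. Activity-driven programmes are best known for genes that rise, first the immediate-early transcription factors and then secretory and synaptic genes. An mRNA level is set by synthesis and by decay, so a lower level within hours can follow from less synthesis of a short-lived mRNA or from faster decay, which an array does not tell apart.

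The culture carried the markers of its label. All 8 neuronal markers listed, among them Map2, Tubb3 and Syt1, were above the signal floor, with mean signals between 8.06 and 10.61, and none of the markers listed for any cell type was a member. Prox1, 1 of 4 dentate granule cell markers, met every numeric criterion (−0.59 at 180 min and −0.66 at 300 min) and was left out by name; it was also the only listed marker lower at a late time by limma, at 300 min. The medians of the 4 dentate markers were −0.11 and −0.08. The summed neuronal signal was 12.43 and 12.50 on the 180 min arrays and 12.58 and 12.58 on the 300 min arrays, against 12.66 and 12.56 on the 0 min arrays (log2 of the sum). Of the astrocyte markers 5 of 6 were above the floor, and their sum was 9.12 and 8.96 at 180 min and 9.10 and 8.85 at 300 min, against 9.11 and 9.20 at 0 min. Of the oligodendrocyte-lineage, microglial and endothelial or mural markers 6 of 7, 3 of 6 and 3 of 6 were above the floor. The median changes of these 4 non-neuronal lists lay between 0.004 and 0.11 at 180 min and between −0.15 and 0.07 at 300 min. Their part in the members' values was not tested.

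The members' median decline was similar at both late times, and the rule required a decline at each. Over the 95 members the median change was −0.50 at 180 min and −0.47 at 300 min, which is 70.8% and 72.2% of the 0 min signal. The same medians were −0.04 and −0.02 over all genes above the floor. At 30 min the members' median was −0.06. The deepest value was −0.89 for Kctd4 at 180 min, and the deepest at 300 min was −0.79 for B3galt5. Both 180 min arrays lay below both 0 min arrays for 94 members, and so did both 300 min arrays; the same was true of 29.0% and 22.9% of all genes above the floor. Lrp1 was the exception at both times. For 91 members all 4 late arrays lay below all 4 arrays of 0 and 30 min, against 7.44% of genes above the floor. Of those genes 3.43% were at −0.4 or lower at 180 min, 1.86% at 300 min and 1.16% at both, as all members are by choice. Since the rule used these contrasts, nothing is read from these counts.

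**Figure D1:**
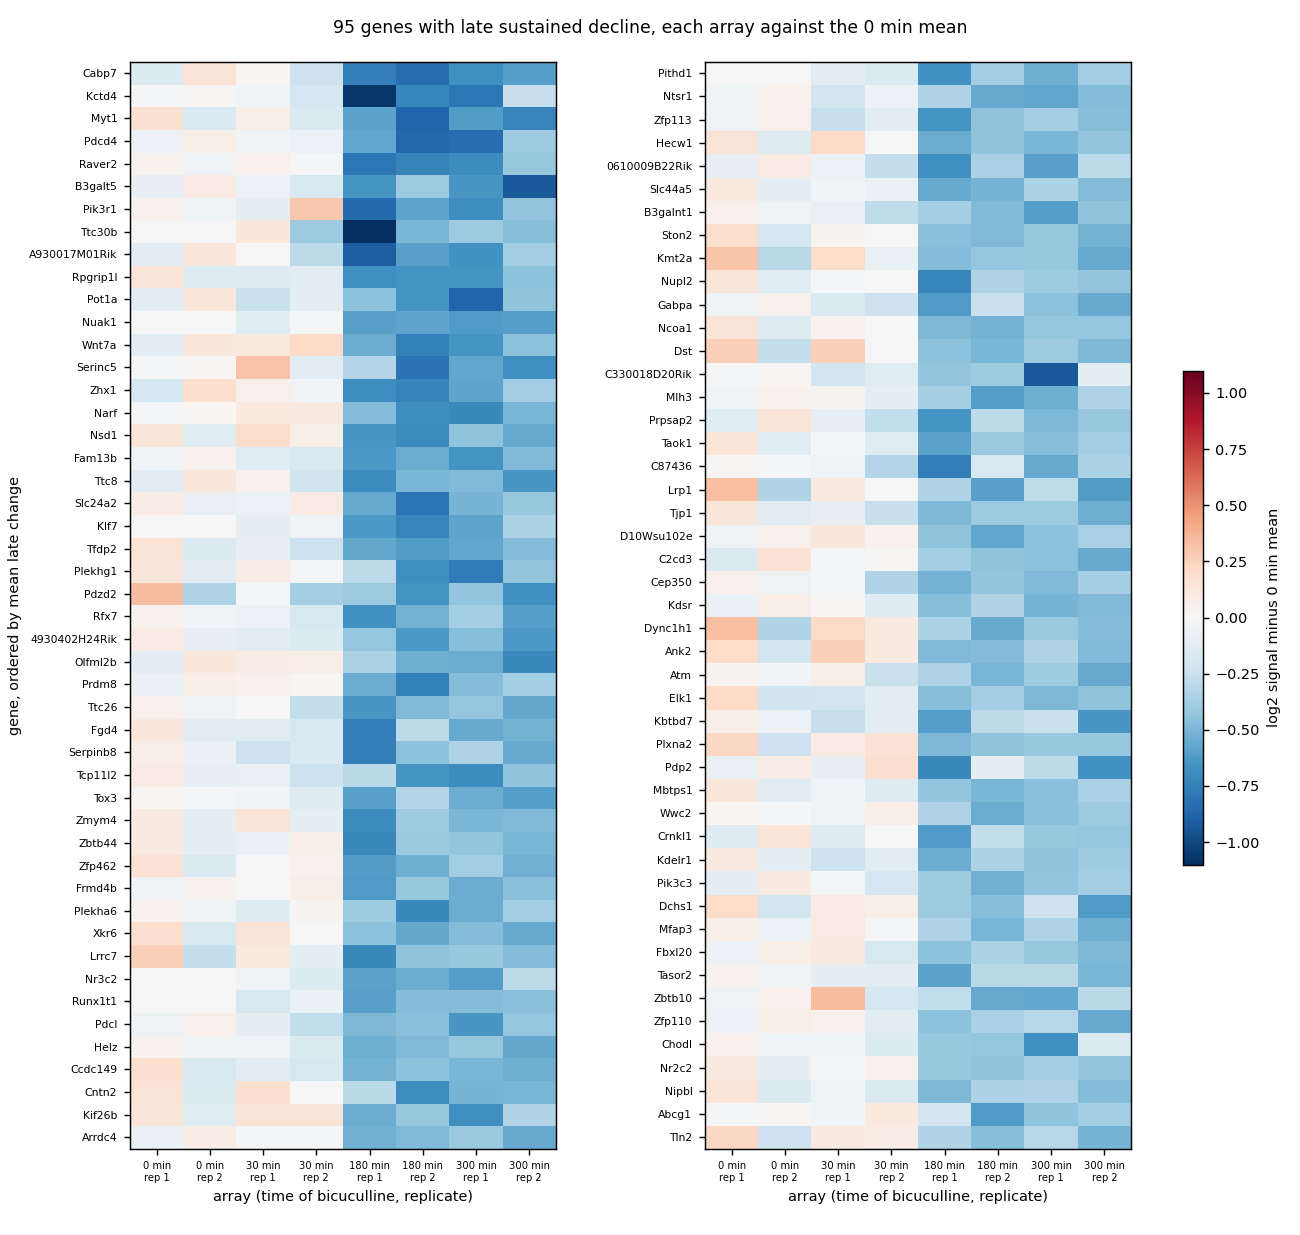
Log2 signal of each of the 95 members (rows, ordered by mean late change) on each of the 8 arrays (columns, by time and replicate), relative to the gene's 0 min mean; blue is lower and red higher. The 4 columns of 180 and 300 min are blue in nearly every row, and the paler columns of 0 and 30 min show where the 0 min replicates differ, as for Dync1h1, Lrp1 and Kmt2a.

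The values near each threshold show how gradual its edges were. Just inside at 180 min were Kdsr (−0.40) and Fbxl20 (−0.40), and just outside were Hbp1 and Tenm1, which were also at −0.40 after rounding. At 300 min Pik3c3 (−0.40) and Tasor2 (−0.40) were inside, and Eogt (−0.40) and Fry (−0.39) outside. At 30 min Serpinb8 and Pdzd2 (−0.20 each) were inside, and Trps1 (−0.20) and Derl2 (−0.21) outside, although Trps1 reached −0.92 at 180 min and −0.76 at 300 min. At the signal floor Serpinb8 (mean signal 4.57) and C330018D20Rik (4.62) were inside, and Rbm46 (4.37) and Mterf2 (4.09) outside. Genes that met every criterion but 1 numbered 69 for the 180 min change, 210 for the 300 min change, 50 for the 30 min change and 5 for the floor.

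**Figure D2:**
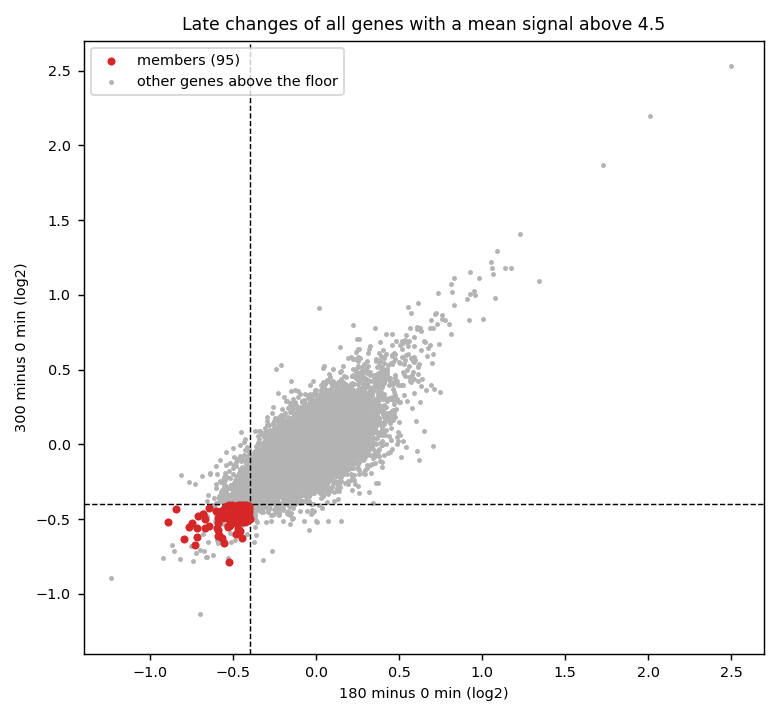
Change at 180 min (horizontal) against change at 300 min (vertical), both as log2 signal minus the 0 min mean, for the 13407 genes above the signal floor; members are red, other genes grey, and dashed lines mark −0.4. The members are the corner of a continuous cloud and none lies below −0.9 on either axis.

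The largest mean late decrease was that of Cabp7, which encodes a calcium-binding protein related to calmodulin. Its signal was 6.49 and 6.79 at 0 min, 6.66 and 6.41 at 30 min, 5.88 and 5.80 at 180 min and 5.97 and 6.04 at 300 min, the late arrays all lying below the early ones. It stood at 57.6% of its 0 min level at 180 min and at 64.3% at 300 min. Nuak1, an AMPK-related kinase known for its role in axon branching, had the closest replicates: 6.99 and 6.99 at 0 min, 6.85 and 6.97 at 30 min, 6.39 and 6.41 at 180 min, and 6.37 and 6.39 at 300 min. Both late means were near 66% of the 0 min level (66.5% and 65.4%). The promoter windows below, of Cabp7 and of 3 genes of the primary cilium taken up later, are shown as examples of start regions of members. They are RefSeq windows of build GRCm38.p6, 250 bases before to 50 after a gene's start, at chr11:4747130-4747429, minus strand; chr8:91313173-91313472, minus strand; chr12:98920324-98920623, plus strand; and chr6:38381274-38381573, plus strand. Capitals mark matches on either strand to the CCAAT box, the GC box, the ETS core, the X-box part and the CRE core whose letters are given with the motif shares at the end.
Cabp7: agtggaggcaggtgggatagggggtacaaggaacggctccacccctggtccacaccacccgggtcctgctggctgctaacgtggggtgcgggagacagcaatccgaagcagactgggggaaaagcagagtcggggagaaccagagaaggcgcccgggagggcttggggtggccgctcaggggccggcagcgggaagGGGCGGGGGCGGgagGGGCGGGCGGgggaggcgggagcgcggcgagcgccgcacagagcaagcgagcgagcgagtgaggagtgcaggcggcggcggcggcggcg
Rpgrip1l: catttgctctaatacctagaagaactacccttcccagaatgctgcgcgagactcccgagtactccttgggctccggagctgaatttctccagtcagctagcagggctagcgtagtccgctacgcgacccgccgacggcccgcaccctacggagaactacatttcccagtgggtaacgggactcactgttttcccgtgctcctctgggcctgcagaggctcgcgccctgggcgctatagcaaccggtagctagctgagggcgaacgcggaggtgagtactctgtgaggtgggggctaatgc
Ttc8: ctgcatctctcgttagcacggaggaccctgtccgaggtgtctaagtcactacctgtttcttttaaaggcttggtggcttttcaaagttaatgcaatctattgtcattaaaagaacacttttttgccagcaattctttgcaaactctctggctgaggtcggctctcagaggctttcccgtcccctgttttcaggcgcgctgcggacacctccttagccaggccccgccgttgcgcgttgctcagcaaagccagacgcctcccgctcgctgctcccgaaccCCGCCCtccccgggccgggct
Ttc26: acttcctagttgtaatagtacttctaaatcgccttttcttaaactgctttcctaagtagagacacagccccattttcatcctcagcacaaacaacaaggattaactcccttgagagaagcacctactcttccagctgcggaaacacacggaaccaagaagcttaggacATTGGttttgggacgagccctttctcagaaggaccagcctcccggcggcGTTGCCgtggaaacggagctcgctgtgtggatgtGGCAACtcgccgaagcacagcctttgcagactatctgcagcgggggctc
Cabp7 held 4 GC boxes, of which a pair overlap, and Ttc8 held 1. Ttc26 held 1 CCAAT box and 2 matches to the X-box part, and Rpgrip1l had no match to these motifs.

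Transcription factors, coregulators and chromatin proteins were the largest role group, with 23 members by a grouping made after the names were known. Roles were given to members only, here and in the groups below. The share of genes above the floor with each role is thus not known, and nothing is read from group sizes. Their median change was −0.54 at 180 min and −0.47 at 300 min. All 4 late arrays lay below all 4 early arrays for each of the 23. The same held for 91 of all 95 members, as the rule favours, and for 7.44% of genes above the floor. Myt1, a zinc finger factor of the neural lineage, had 6.10 and 5.76 at 0 min, 5.99 and 5.77 at 30 min, 5.34 and 5.06 at 180 min and 5.31 and 5.21 at 300 min. Its 0 min arrays differed by 0.33, which is less than its late decrease of −0.70. Klf7, a Krüppel-like factor that promotes neurite growth, was the brightest of the group, with 8.69 and 8.68 at 0 min, 8.59 and 8.64 at 30 min, 8.05 and 7.95 at 180 min and 8.11 and 8.34 at 300 min. It was deeper at 180 min (−0.68) than at 300 min (−0.46). Nsd1, a histone H3 lysine 36 methyltransferase, changed by −0.67 and −0.50, and Kmt2a, a histone H3 lysine 4 methyltransferase, by −0.45 and −0.49. Kmt2a had 7.73 on 0 min replicate 1 and 7.12 on replicate 2, so that its late arrays, at 6.94 and 7.0 for 180 min and 7.01 and 6.86 for 300 min, were much nearer to the second of these.

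Other transcriptional members spanned several families. The zinc finger and homeobox repressor gene Zhx1 changed by −0.71 at 180 min and −0.48 at 300 min, and Prdm8, a PR-domain factor of neuronal differentiation, by −0.64 and −0.43. Zbtb44 (−0.56 and −0.47), Zfp462 (−0.57 and −0.45) and Zfp113 (−0.55 and −0.42) are C2H2 zinc finger genes. Nr3c2, the mineralocorticoid receptor gene, which is strongly expressed in hippocampal neurons, had 7.29 and 7.27 at 0 min, 7.23 and 7.13 at 30 min, 6.70 and 6.74 at 180 min and 6.68 and 6.99 at 300 min. Both late means were below both early means by more than the gap between any of its replicate pairs. Elk1, an ETS factor through which MAP kinase acts on serum-response genes, changed by −0.42 and −0.47, and Gabpa, another ETS factor, by −0.43 and −0.50. Ncoa1, a nuclear receptor coactivator gene, changed by −0.51 and −0.43, and Runx1t1, a corepressor gene, by −0.54 and −0.47.

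Most genes of these families were not members. Of 366 C2H2 zinc finger and BTB genes above the floor 6 were members (1.64%, against 0.709% of all genes above the floor), and the family median was −0.08 at 180 min and −0.03 at 300 min. Of these 366, 3 were lower at 180 min and 1 at 300 min across all genes (limma, adjusted p under 0.05), and 0 were higher at either time. Over all genes 0.12% were lower at 180 min and 0.0602% at 300 min. Of 128 chromatin modifying enzymes and remodellers 2 were members (1.56%), the median was −0.12 and −0.09, and 2 and 1 were lower while 1 and 0 were higher by the same test. Zbtb20 of the first list and Kmt2c of the second met the numeric criteria and were left out by name. No member was found among 93 homeobox, bHLH and other transcription factor genes, whose medians were 0.04 and 0.02; that list did not hold Zhx1, Elk1, Gabpa or Nr3c2.

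A group of 6 members encode parts of the primary cilium or centrosome. The primary cilium is a single sensory projection of the neuron that concentrates certain receptors, and it is built and served by intraflagellar transport and by the BBSome, a coat complex for ciliary membrane proteins. Ttc30b, an intraflagellar transport gene, had 5.42 and 5.41 at 0 min, 5.53 and 5.02 at 30 min, 4.23 and 4.91 at 180 min and 5.01 and 4.95 at 300 min. Its 180 min arrays differed by more than its change at 300 min. Rpgrip1l, a gene of the ciliary transition zone, had 5.82 and 5.54 at 0 min, 5.53 and 5.56 at 30 min, 5.0 and 5.02 at 180 min and 5.02 and 5.22 at 300 min, with no overlap between early and late arrays. Ttc8, a BBSome gene, changed by −0.60 at 180 min and −0.56 at 300 min, and Ttc26, an intraflagellar transport gene, by −0.56 and −0.50. C2cd3, needed at the distal end of centrioles, changed by −0.41 and −0.50, and Cep350, a centrosomal protein gene, by −0.48 and −0.43.

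A wider list of genes of intraflagellar transport, the BBSome and the transition zone, 46 of them above the floor, was drawn up after the members were seen, so it describes and does not support. Of the 46, 4 were members (8.70%, against 0.709% of all genes above the floor), the median change was −0.13 at 180 min and −0.14 at 300 min, and 39 and 33 were below 0. Of all genes above the floor 58.8% were below 0 at 180 min and 54.2% at 300 min. By limma 1 was lower at 180 min, Rpgrip1l, 0 were lower at 300 min and 0 were higher at either time. Several that were not members had similar late values: Ift81 was at −0.50 and −0.38, Ift122 at −0.49 and −0.38, Ift74 at −0.40 and −0.37 and Tmem231 at −0.39 and −0.39. Others did not, such as Ift20 (0.27 and 0.17) and Ahi1 (−0.04 and 0.06), and Bbs5 went the other way (0.45 and 0.55).

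Signalling genes made up 13 members, with medians of −0.51 at 180 min and −0.54 at 300 min, and Cabp7 and Pik3r1 led them. Pik3r1, the gene of the p85-alpha regulatory subunit of class I PI3-kinase, had 8.20 and 8.11 at 0 min, 8.05 and 8.45 at 30 min, 7.30 and 7.58 at 180 min and 7.47 and 7.72 at 300 min. It stood at 60.9% of its 0 min level at 180 min and at 67.7% at 300 min. Pik3c3, the catalytic subunit of class III PI3-kinase, was a member by a narrow margin (−0.46 and −0.40). In a list of these 2 kinase classes, also drawn up after the members were seen, the other 8 subunit genes above the floor lay between −0.29 and −0.06 at 180 min and between −0.19 and 0.08 at 300 min, and by limma none of the 10 was lower or higher. Of 75 phosphoinositide enzyme genes 2 were members (2.67%, against 0.709% of all genes above the floor).

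Wnt7a, a secreted Wnt ligand known for promoting synapse assembly, had 5.97 and 6.21 at 0 min, 6.20 and 6.30 at 30 min, 5.54 and 5.35 at 180 min and 5.44 and 5.64 at 300 min. It was the only member among 65 Wnt and Notch pathway genes (1.54%, against 0.709% of all genes above the floor). The medians of the 65 were 0.01 and −0.04. The neurotensin receptor gene Ntsr1 changed by −0.45 and −0.52, and Fgd4, an exchange factor gene for Cdc42, by −0.52 and −0.54. Taok1, a MAP kinase kinase kinase gene of neurite and spine development, changed by −0.50 and −0.42 at a mean signal of 8.39. No member was found among 143 listed GTPase regulators or 124 listed G protein coupled receptors, since the lists did not hold Fgd4 or Ntsr1. With members at 0.709% of all genes above the floor, little is read from their absence in lists of this size.

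Among RNA and translation genes, Pdcd4 and Raver2 had the largest decreases. Pdcd4, an inhibitor of the translation initiation helicase eIF4A, had 7.67 and 7.81 at 0 min, 7.71 and 7.68 at 30 min, 7.17 and 6.88 at 180 min and 6.90 and 7.34 at 300 min. Raver2, an RNA-binding protein gene, had 6.37 and 6.29 at 0 min, 6.38 and 6.32 at 30 min, 5.54 and 5.60 at 180 min and 5.64 and 5.92 at 300 min. The early arrays of Raver2 lay close together and its late arrays were all well below them. Helz, a helicase gene, changed by −0.51 and −0.49, Crnkl1, a splicing factor gene, by −0.45 and −0.42, and Nupl2, a nuclear pore gene, by −0.53 and −0.41. Of 177 RNA-binding and decay genes above the floor, Raver2 was the only member listed (0.565%, against 0.709% of all genes above the floor). By limma it was also the only one of the 177 lower at 180 min, as were 0.12% of all genes.

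The cytoskeleton, junction, adhesion and matrix group had 15 members and the brightest signals. Dync1h1, the heavy chain of cytoplasmic dynein, had 9.29 and 8.64 at 0 min, 9.18 and 9.06 at 30 min, 8.62 and 8.41 at 180 min and 8.55 and 8.49 at 300 min. The second 0 min array lay just above the higher 180 min array. Ank2, the ankyrin-B gene, had 9.09 and 8.69 at 0 min, 9.15 and 8.99 at 30 min, 8.41 and 8.41 at 180 min and 8.55 and 8.40 at 300 min, with early and late arrays apart. Plxna2, a semaphorin receptor gene, changed by −0.47 and −0.41, and Cntn2, an axonal adhesion gene, by −0.49 and −0.51. Dst, a giant linker of cytoskeletal filaments, changed by −0.48 and −0.45, Kif26b, an unconventional kinesin gene, by −0.48 and −0.51, and Lrrc7, a postsynaptic scaffold gene, by −0.57 and −0.45. Lrp1, a large endocytic receptor gene, had 8.41 and 7.75 at 0 min, 8.18 and 8.08 at 30 min, 7.75 and 7.48 at 180 min and 7.80 and 7.46 at 300 min, so its late arrays overlapped its 0 min arrays. Of 94 kinesin, dynein, myosin and linker genes 4 were members (4.26%). So were 1 of 73 axon guidance genes (1.37%) and 1 of 84 adhesion genes (1.19%), against 0.709% of all genes above the floor. By limma none of these 3 lists held a gene lower or higher at either late time. The 4 members of the first list were Ank2, Dst, Dync1h1 and Kif26b. Against 0 min replicate 1 alone their mean late changes lay between −0.78 and −0.63. Against 0 min replicate 2 alone they lay between −0.36 and −0.12, so the share of this list leans on 1 array.

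**Figure D3:**
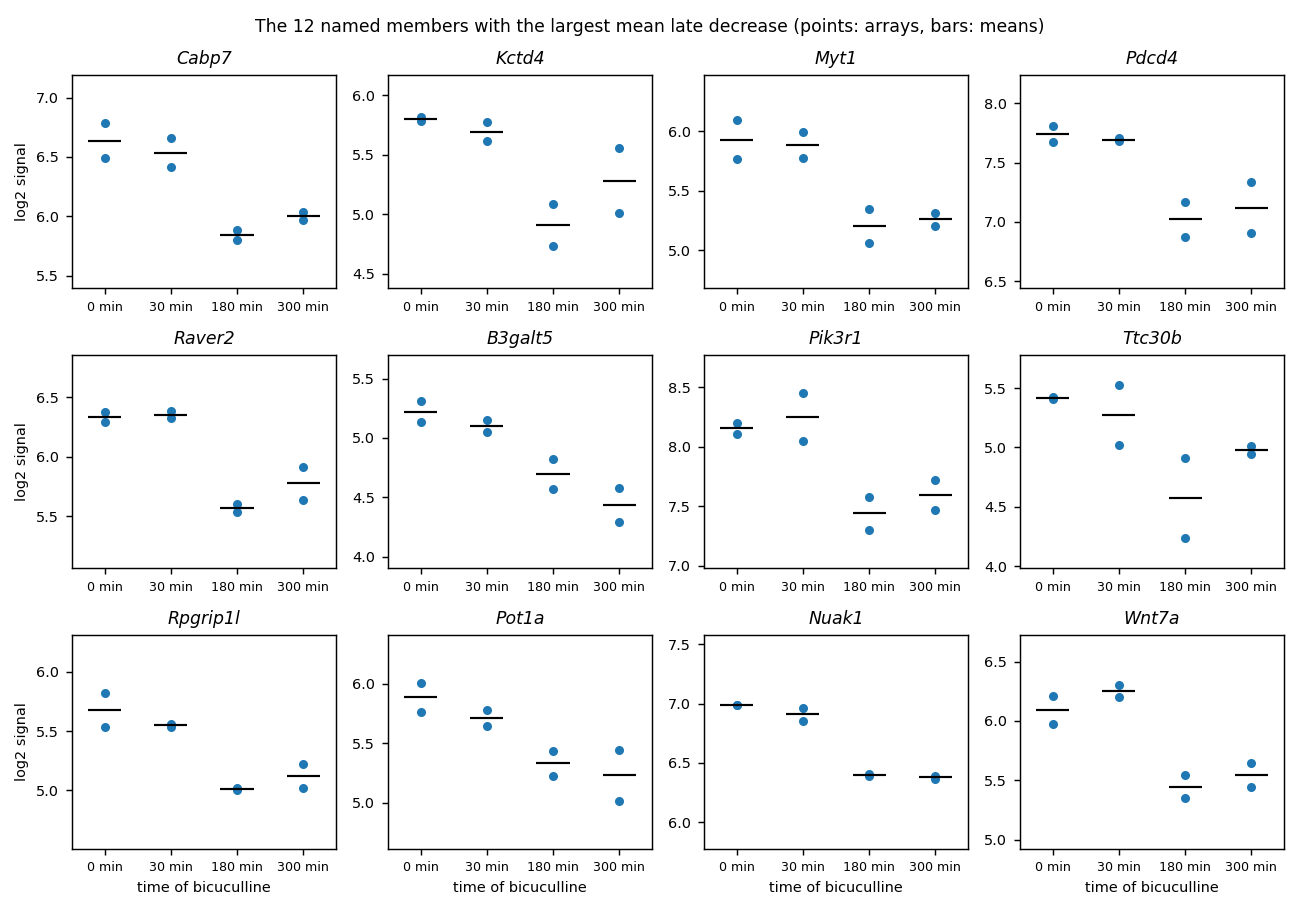
Log2 signal (vertical, each panel spanning 1.8 units) against time of bicuculline for the 12 members with the largest mean late decrease that are not predicted loci; points are the 2 arrays of a time and bars their mean. In every panel both late means lie below both early means, with the closest replicates for Nuak1 and the widest at 180 min for Ttc30b.

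Transport, secretory, lipid and metabolic genes gave 13 members, with medians of −0.47 at both late times. B3galt5, a galactosyltransferase gene of glycolipid synthesis, had 5.13 and 5.31 at 0 min, 5.15 and 5.05 at 30 min, 4.57 and 4.82 at 180 min and 4.58 and 4.29 at 300 min. It was the member that was furthest down at 300 min, at 58.0% of its 0 min level. Serinc5, a multipass membrane protein gene, had 7.31 and 7.35 at 0 min, 7.65 and 7.22 at 30 min, 7.01 and 6.52 at 180 min and 6.76 and 6.65 at 300 min. Slc24a2, a potassium-dependent sodium-calcium exchanger gene of neurons, changed by −0.68 and −0.47, and Slc44a5, a choline transporter-like gene, by −0.53 and −0.41. B3galnt1, a galactosaminyltransferase gene, changed by −0.43 and −0.52, Mbtps1, the site-1 protease gene that activates sterol-regulatory factors, by −0.47 and −0.41, and Abcg1, a sterol exporter gene, by −0.41 and −0.41. By list, 2 of 111 glycosyl- and sulfotransferase genes (1.80%) and 2 of 254 solute carrier genes (0.787%) were members. Over all genes above the floor the share was 0.709%. By limma the first list held 0 genes lower at 180 min and 1 at 300 min, B3galt5, with 0 higher at either time. The second held 1 lower at 180 min, Slc24a2, and 1 higher at 300 min. Over all genes 0.12% were lower at 180 min and 0.0602% at 300 min.

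The remaining groups were small. Pot1a, a telomere end-binding protein gene, had 5.76 and 6.01 at 0 min, 5.65 and 5.78 at 30 min, 5.43 and 5.23 at 180 min and 5.02 and 5.44 at 300 min. The DNA repair genes Mlh3 (−0.49 and −0.44) and Atm (−0.42 and −0.47) were also members, Atm at a mean signal of 4.73, near the floor. The ubiquitin ligase gene Hecw1 changed by −0.49 and −0.47 at a mean signal of 8.23, Fbxl20, an F-box adaptor gene, by −0.40 and −0.45, and Kbtbd7, a BTB-Kelch adaptor gene, by −0.44 and −0.44. Kctd4, a BTB domain gene, had 5.79 and 5.82 at 0 min, 5.78 and 5.61 at 30 min, 4.73 and 5.09 at 180 min and 5.01 and 5.55 at 300 min, with the higher 300 min array close to the lower 30 min array. Narf, which encodes a prelamin A-binding protein, changed by −0.58 and −0.60. Of 20 listed activity-induced genes none was a member. Their median changes were 0.98 at 180 min and 1.03 at 300 min, against −0.04 and −0.02 over all genes above the floor. No member was found among 28 glutamate and GABA receptor genes, of which 0 were lower or higher by limma, or among 284 trafficking genes, of which 1 was lower at 180 min. Nor was one found among 60 TGF-beta and BMP genes, of which 1 was lower and 1 higher at each late time. Over all genes 0.12% were lower at 180 min and 0.0602% at 300 min. The share of all genes that were higher is not given here, so nothing is read from the higher counts. Of these 60 genes 1, Tgfbr1, was left out by name (−0.82 and −0.77). Members were 0.709% of all genes above the floor, so little is read from their absence in lists of these sizes. Another 6 members were predicted or unnamed loci, A930017M01Rik (−0.75 and −0.52) among them.

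The difference between the 2 late times was a contrast whose size the rule did not set, although both means entered the rule alike. Of the 95 members, 62 were higher at 300 than at 180 min, or 65.3%, against 59.2% of all genes above the floor, and the members' median difference was 0.02, against 0.03 over those genes. The lower and upper quartiles of this difference were −0.02 and 0.09 for the members, against −0.07 and 0.12 over those genes. The rule set both late changes at −0.4 or lower against the same 0 min mean, so nothing is read from their closeness. In the limma fit across 19938 genes, 0 members differed between 300 and 180 min at an adjusted p under 0.05, as did 0.0% of all genes. At an unadjusted p under 0.05, 1 member was higher (2.33% of all genes were) and 0 were lower (3.4% of all genes were). The largest positive differences were those of Ttc30b (0.41 ± 0.20 SE, limma adjusted p = 0.852) and Kctd4 (0.37 ± 0.17 SE, limma adjusted p = 0.852), followed by Zhx1 (0.23) and A930017M01Rik (0.22). The most negative were those of B3galt5 (−0.26 ± 0.14 SE, limma adjusted p = 0.852), Olfml2b (−0.18), Plekhg1 (−0.12) and Tox3 (−0.12). None of these differences passed at an adjusted p under 0.05 over all genes. The 1 member with an unadjusted p under 0.05 was Kctd4 (limma unadjusted p = 0.0439).

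In the same fit, 10 members were lower at 180 min at an adjusted p under 0.05 (0.12% of all genes were) and 2 at 300 min (0.0602%). The 10 were Klf7, Nuak1, Cabp7, Nsd1, Kctd4, Zhx1, Raver2, Slc24a2, Prdm8 and Rpgrip1l, and the 2 were Nuak1 and B3galt5. Nothing is read from these counts, since the same contrasts chose the members.

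The reliability of the member list was described by choosing genes on some arrays and reading them on others. Applied to the 4 replicate 1 arrays alone, the rule chose 196 genes, of which 56 were members. The 196 genes had median changes of −0.59 at 180 min and −0.51 at 300 min on those arrays. On the 4 replicate 2 arrays, which had not chosen them, the medians were −0.28 and −0.17, 91.8% and 88.8% of the genes were below 0, and 32.7% and 15.3% reached −0.4. Over all genes above the floor the replicate 2 arrays gave medians of −0.04 and −0.03, with 57.3% and 56.0% below 0 and 5.38% and 4.78% at −0.4 or lower. Chosen on the replicate 2 arrays were 62 genes, of which 22 were members. The 62 genes had medians of −0.26 and −0.25 on the replicate 1 arrays. Of them 80.6% and 83.9% were below 0, against 57.2% and 50.5% of all genes above the floor. The 2 choices shared 10 genes, which is 5.10% of the first and 16.1% of the second. Most chosen genes were thus lower on the arrays that had not chosen them too, by less, and most did not reach −0.4 there.

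**Figure D4:**
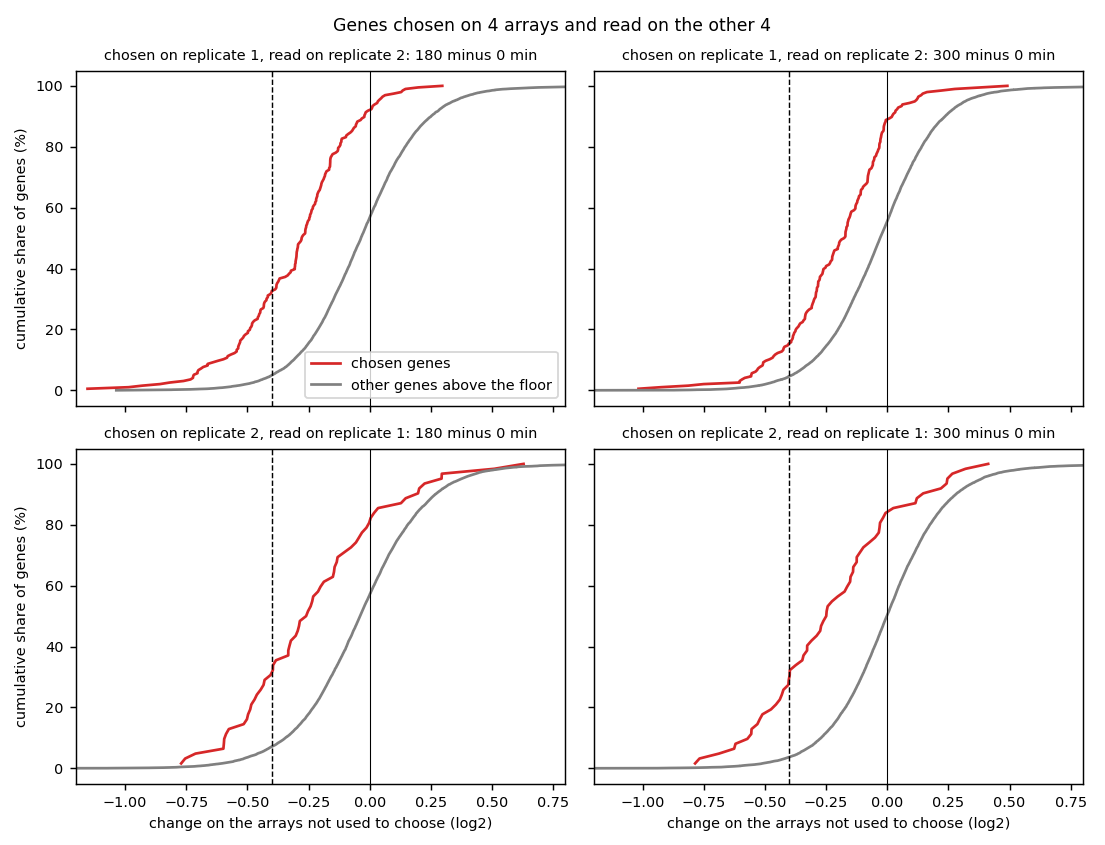
Cumulative share of genes (vertical, percent) against the change on the arrays not used to choose them (horizontal, log2), for genes chosen on the replicate 1 arrays and read on the replicate 2 arrays (top) and the reverse (bottom), at 180 min (left) and 300 min (right). The red curves of chosen genes lie left of the grey curves of other genes above the floor, with medians between −0.28 and −0.17, short of the dashed line at −0.4.

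Single arrays decided which genes were members. Without 0 min replicate 1 the rule found 83 genes, 41 of them members, and without 0 min replicate 2 it found 155, 54 of them members. Leaving out any 1 of the other 6 arrays gave between 82 and 118 genes, of which 73 to 81 were members. Meeting the rule without each of the 8 arrays in turn were 9 members: Pdcd4, Raver2, Nuak1, Narf, Fam13b, Frmd4b, Runx1t1, Helz and Arrdc4. These 9 also met it after quantile normalization and after centring each array on its median.

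A second reading came from 10 other transcript clusters of 6 members, which are other probe sets of the same genes that the rule did not use. They were read on the same RNA and the same arrays, 0 min arrays included, that chose their genes. They are thus not independent support for the members' decline. All 10 were lower at both late times than at 0 min, with medians of −0.41 at 180 min and −0.38 at 300 min, against −0.07 and −0.04 over the 1271 such clusters of all genes above the floor. Of those 1271, 852 were below 0 at 180 min and 774 at 300 min. Both late changes were at most −0.4 for 3 of the 10 and for 35 of the 1271. Without 0 min replicate 1 the medians of the 10 were −0.28 at 180 min and −0.28 at 300 min. Without 0 min replicate 2 they were −0.51 and −0.50. Against 0 min replicate 2 alone, not every Cep350 cluster was lower at both late times. The other cluster of Taok1 had 7.36 and 7.06 at 0 min, 7.31 and 6.97 at 30 min, 6.66 and 6.42 at 180 min and 6.73 and 6.41 at 300 min, a deeper decrease (−0.67 and −0.64) than that of its main cluster. That of Zbtb44 changed by −0.46 and −0.39, that of Ccdc149 by −0.75 and −0.45 and that of Kif26b by −0.30 and −0.38. That of A930017M01Rik changed by −0.89 and −0.77. The 5 other clusters of Cep350 ranged from −0.50 to −0.14 at 180 min and from −0.39 to −0.17 at 300 min, and share 1 gene and the same RNA.

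Many members were long genes. Their median genomic span, from start to end of the gene in the RefSeq table of GRCm38.p6, was 68.4 kb, against 22.0 kb over the genes above the floor. By quartiles of span, 5, 18, 19 and 53 members stood in turn from the shortest to the longest quartile, which is 0.150%, 0.538%, 0.569% and 1.59% of the genes there. The longest were Ank2 (578.7 kb), Lrrc7 (494.8 kb), Tln2 (417.0 kb), Kif26b (403.7 kb) and Dst (400.8 kb), and Ttc30b, at 2.61 kb, was the shortest. A trend with span was not particular to the members. Over all genes above the floor the median 180 min change was 0.02, −0.02, −0.06 and −0.11 from the shortest to the longest quartile. Both late changes were at most −0.4 for 0.449%, 0.838%, 0.838% and 2.54% of these genes, members included. Under the mirrored rule, with increases of at least 0.4 at both late times, 88 genes were found, with a median span of 23.8 kb and shares of 0.688%, 0.568%, 0.718% and 0.658%.

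The skew towards long genes moved with 1 array. Of the 53 members in the longest quartile, 41 were higher on 0 min replicate 1 than on replicate 2, with a median gap of 0.20, whereas the median gap was between −0.16 and −0.04 for members of the other quartiles. Over all genes above the floor the same gap was 0.02 in the longest quartile and between −0.07 and −0.04 in the others. Without 0 min replicate 1 the shares from the shortest to the longest quartile were 0.299%, 0.479%, 0.718% and 0.957%, and without replicate 2 they were 0.179%, 0.359%, 0.628% and 3.47%. The median span was 40.5 kb without replicate 1 and 101.9 kb without replicate 2. The longest quartile had the highest share either way, and that share was larger when replicate 1 alone stood for 0 min. A gap of over 0.3 in that direction was found for 18 members, Dync1h1, Ank2, Dst, Lrp1, Kmt2a, Plxna2, Tln2, Lrrc7, Myt1 and Pdzd2 among them, and a gap of over 0.3 in the other direction for Zhx1 and C2cd3. The part of this array in each member's decrease was not tested further.

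**Figure D5:**
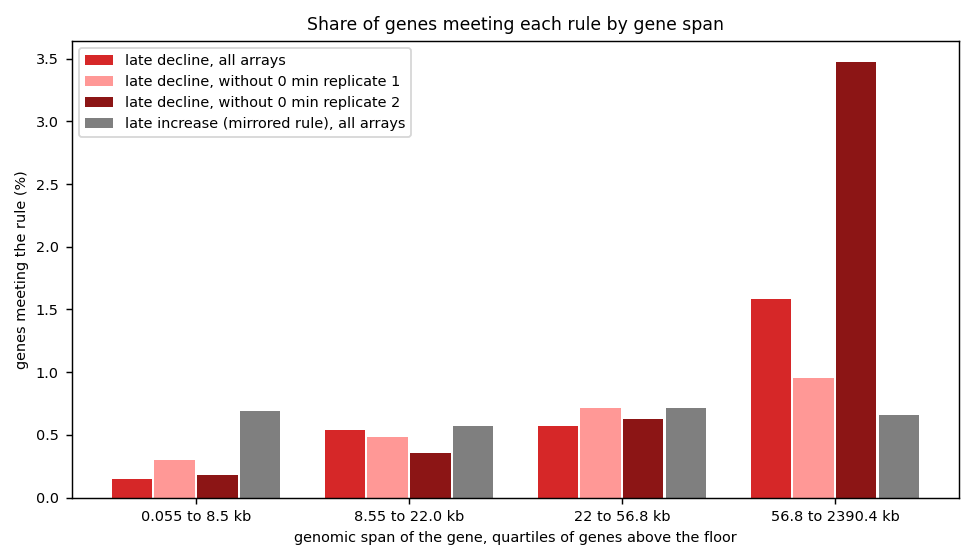
Share of genes (vertical, percent) that met the rule in each quartile of genomic span (horizontal, kb) among genes above the floor with a span, for the late decline with all arrays, without 0 min replicate 1 and without 0 min replicate 2, and for the mirrored late increase. The longest quartile has the highest share of late decline under all 3 settings, from 0.957% to 3.47%, while the late increase stays between 0.568% and 0.718%.

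Promoters of the members resembled those of other expressed genes in composition. RefSeq windows were matched by symbol for 77 of the 95 members, 100 windows in all. Their median GC content was 60.7% and their median CpG ratio, observed over expected, was 0.73, the same as for the 13610 windows of genes above the floor, 60.7% and 0.73, and above the 52.7% and 0.38 over all 32851 windows. Motifs were searched on both strands. CCAAT stood in 36.0% of member windows, 36.5% of those of genes above the floor and 37.4% of all windows. GGGCGG, the GC box, stood in 51.0%, 60.7% and 35.7%, and CCGGAAG, a core bound by ETS factors, in 9.0%, 15.1% and 8.86%. TGACGTC, the core of the CRE to which CREB binds, stood in 2.0%, 4.98% and 3.21%, TGANTCA, the AP-1 motif, in 4.0%, 5.06% and 7.81%, CACGTG in 7.0%, 9.63% and 7.15%, TATAAA in 7.0%, 7.30% and 13.6%, and GTTGCC, part of the X-box of ciliary genes, in 10.0%, 12.7% and 12.5%. The last motif was added after the ciliary members were seen. These are matches of letters in short windows, some genes have several windows, and no difference between these shares was tested.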

How the data were processed

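Signals of 8 arrays were taken from the value table deposited by the authors, 35399 rows of log2 values per transcript cluster; the base was inferred from the range (1.22 to 14.96). How background was corrected, how probes were summarised and normalized, and which software and build were used is not given in the sources used here, and each can change the size of a small difference. Platform annotation gave 1 symbol to 21789 rows, several to 1621 and none to 11989. The cluster with the highest mean stood for a gene (19938 genes). Array medians over all rows lay between 4.84 and 4.88, and replicates correlated at r between 0.985 and 0.990 across rows. The labels call the replicates biological without saying more, so a p-value reflects only how far these arrays spread, and their small number limits the precision.

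A mean per time was fitted to all 8 arrays with limma 3.58.1 in R 4.3.3 (lmFit, eBayes, 4 residual degrees of freedom, two-sided, Benjamini-Hochberg over all genes, threshold 0.05) and tested on simulated data. SE is limma's moderated standard error. Alternatives were quantile normalization, median centring, each array left out, a replicate block, other filters and thresholds. The members and gene lists were chosen with earlier results of these data known. Members were named by a fixed rule (the 16 largest mean late changes, the 6 brightest, the extremes of the late contrast, those next to a threshold, up to 4 per list and those with other clusters), and other members were named after their values were seen, to fill the role groups.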

Additional observations from a re-analysis of the deposited data

How the results depend on the processing

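Members numbered 71 after quantile normalization (67 of the 95 kept) and 123 with each array centred on its median (89 kept). Thresholds mattered more: 22 genes met late changes of at most −0.5, 285 met −0.3, and 48 met a 30 min change within 0.1. A floor of 5.5 left 80, the mean of all clusters of a gene gave 98, and the mirrored rule, added after seeing the data, gave 88. Leaving out 1 array at a time gave 82 to 155 members, medians of −0.57 to −0.47 at 180 min and −0.53 to −0.44 at 300 min for the 95, and medians of −0.51 to −0.28 and −0.50 to −0.28 for their other clusters. The 155 arose without 0 min replicate 2. The replicate 1 arrays alone chose 196 genes, 56 of them members. The medians of these 196 genes on the replicate 2 arrays were −0.28 at 180 min and −0.17 at 300 min. The reverse chose 62 genes, 22 of them members, with medians of −0.26 and −0.25.

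Between 300 and 180 min, 0 members passed under each of the 14 alternatives, and 0 to 5 had an unadjusted p under 0.05, the 5 without 300 min replicate 1. The members' lowest adjusted p for that contrast was 0.852, and 0.211 to 0.999 over the alternatives. With the replicate block the count was also 0, with 1 at an unadjusted p under 0.05. In the main limma fit 0.0% of all genes passed. At an unadjusted p under 0.05, 2.33% of all genes were higher and 3.4% lower there. Since no gene passed in that fit, nothing is read about the members from these counts. Differences between replicate 1 and replicate 2 correlated at −0.09 to 0.09 between times. No strong effect shared by same-numbered arrays was seen, and the labels do not say whether the numbers pair the samples. With 2 arrays a time, changes near the threshold of −0.4 were not measured precisely enough to fix membership gene by gene.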
